A study of Mus musculus with 2 samples.

Results

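The nuclear-encoded genes of the mitochondrial respiratory chain and ATP synthase were compared between 2 Affymetrix mouse arrays of whole lung RNA from embryonic day 18. The genes were chosen by name only: a symbol that starts with Nduf, Uqcr, Cox4, Cox5, Cox6, Cox7, Cox8 or Atp5, or is Cyc1 or Cycs, and a probe set that names no other gene. This rule found 88 genes, read by 175 probe sets, among 18193 genes on the array. A gene counts as measured where its brightest probe set had a mean signal over both arrays at or above a floor of 49.3, the 40th percentile of all signals, and 84 of the 88 did. The 4 genes below the floor were Ndufb1, Ndufaf6, Cox7b2 and Cox8b. Cox7b is not analysed here.

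The lungs of the first group were wildtype, and those of the second were homozygous for Nmyc9a, a hypomorphic allele of the Myc family gene Mycn, which lowers its function without removing it. Each group held 1 array, and each array was made from pooled lungs. The sources used here do not give the strain, the sex or the number of embryos per pool. One array per group allows no test, so no p-value is given, and a pool shows nothing of the spread between animals. In RNA of a whole organ, fewer cells of a type and less RNA per cell cannot be told apart.

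The respiratory chain moves electrons from NADH through complex I, ubiquinone, complex III, cytochrome c and complex IV to oxygen, and pumps protons across the inner mitochondrial membrane as it does so. ATP synthase, complex V, lets the protons return through its membrane part, Fo, and makes ATP in its head, F1. Most subunits are encoded in the nucleus and a small set in mitochondrial DNA, and assembly factors join the parts without staying in the finished complex. Lung epithelium spends much ATP on ion and liquid transport and on surfactant synthesis around birth, and Myc factors are known to promote transcription of many nuclear genes for mitochondrial proteins.

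Signals below are scaled so that the median log2 ratio of measured probe sets was 0, and of each pair of signals the first is wildtype. A log2 ratio is that of the second group over wildtype, with signals under the floor raised to it. Mycn itself read 66.3 and 84.8 by one probe set (0.36), 51.1 and 85.4 by another (0.74), and lay below the floor in the third. These dim values are not lower in the second group, and whether the probes lie in a part that the allele affects is not given, so they do not check its label, and the second array is called the array labelled Nmyc9a. The lung epithelial markers Nkx2-1, Sftpc, Sftpb, Sftpa1, Epcam and Cdh1 were all measured, none lay 1.5-fold apart, and their summed signal was 19745 and 19859. The proliferation markers moved with the result below: 7 of 7 on the array were at least 1.5-fold lower, against 9.70% of all measured genes. Their summed signal was 3630 and 1678, with none at 0. The part of these markers in that result was not tested.

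Most respiratory chain and ATP synthase transcripts had lower signals on the array labelled Nmyc9a than on the wildtype array, with median log2 ratios by complex from -0.50 to -0.33. Of the 84 measured genes, 75 had a log2 ratio below 0, a share of 89.3% against 58.7% of all 12600 measured genes. At least 1.5-fold lower were 26 (31.0%), against 9.70% of all measured genes, and none was 1.5-fold higher, against 6.33%. The median log2 ratio was -0.48 for these genes and -0.09 for all measured genes. Cycs, which encodes cytochrome c, was the only one at least 2-fold lower and none was 2-fold higher, where 1.38% and 1.29% of all measured genes were. At 1.2-fold, 62 were lower and 3 higher, and the backgrounds were 32.5% and 19.5%. Most differences were small, the tissue isoforms of complex IV had a median of 0.10, and many values crowded the 1.5-fold line: 10 genes lay between 1.5-fold and 1.6-fold lower and 14 between 1.4-fold and 1.5-fold. The error that can be had here is how far probe sets of 1 gene differ, with a pooled SD of 0.40 (log2) over 5671 genes and 0.41 over the 42 genes of the set with at least 2 measured ones. A single gene with a smaller ratio than that is not distinguished from probe behaviour.

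**Figure D1:**
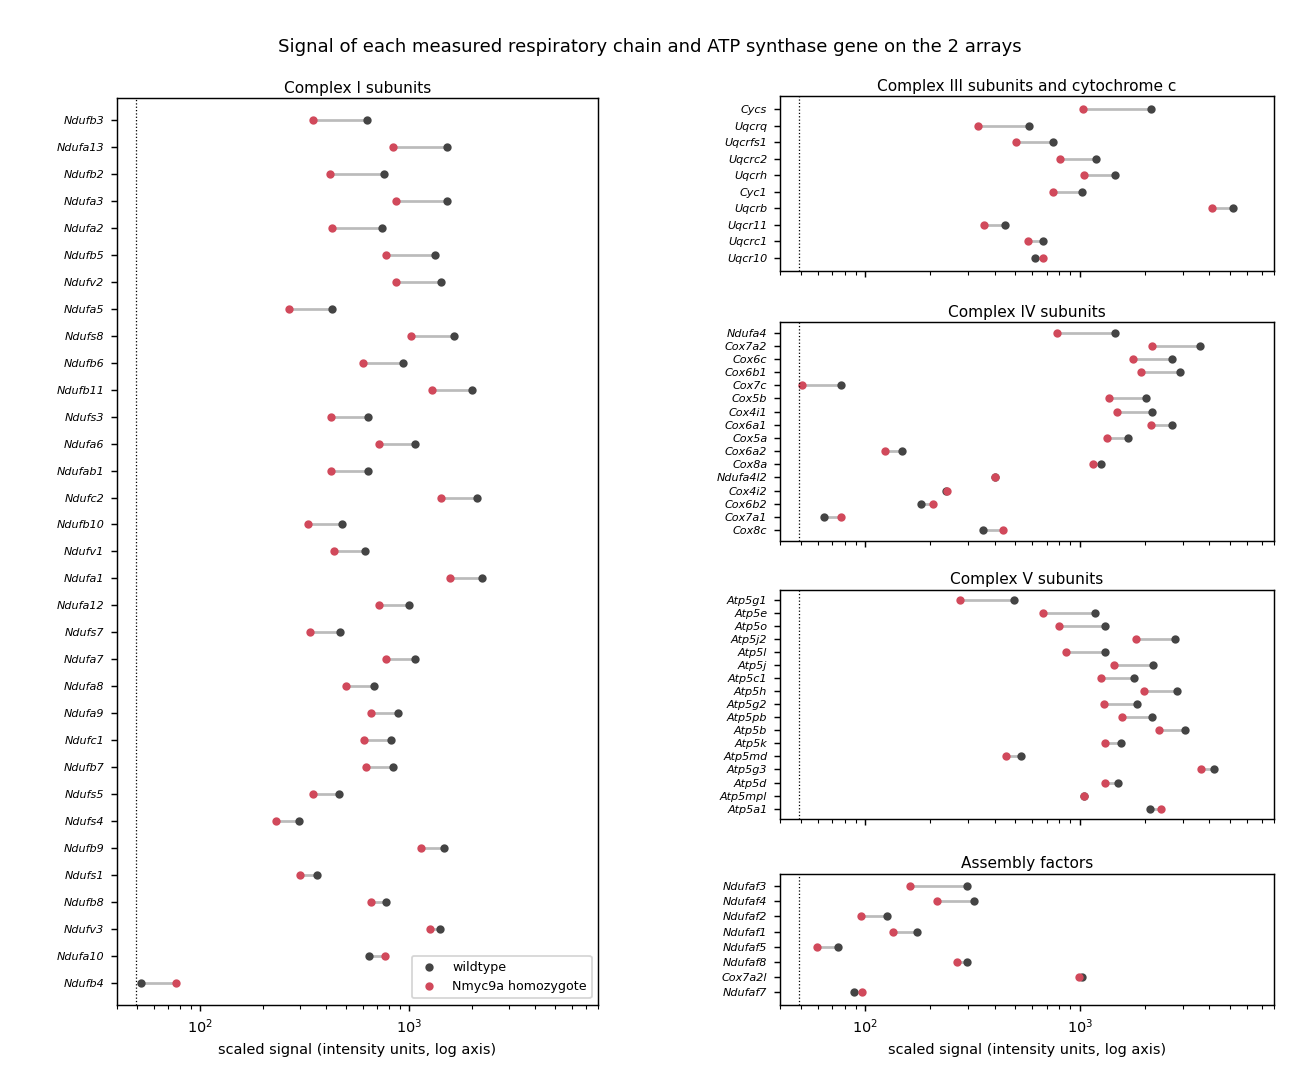
Scaled signal (intensity units, log axis) of the brightest probe set of each of the 84 measured genes on the wildtype array (grey) and the array labelled Nmyc9a (red), 1 array per group, with the floor of 49.3 as a dotted line. The red point lies left of the grey one for 75 genes; signals of different genes come from different probes and are not levels to compare.

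The probe sets of these genes were bright, and over all genes the ratio was lower at higher signal. All measured genes had a median log2 ratio of 0.10 in the dimmest 10% by signal and -0.22 in the brightest 10%, and 45 of the 84 genes lay among the brightest. Their median there was -0.52. In the brightest 20%, 22 of 61 were at least 1.5-fold lower (36.1%, against 11.3% of all 2520 genes there), and 58 of 61 lay below 0 (95.1% against 73.9%). Among the dimmer 80%, 4 of 23 were at least 1.5-fold lower (17.4% against 9.30% of all 10080 genes there) and 17 of 23 lay below 0 (73.9% against 54.9%), with a median of -0.33 against -0.05. Those 23 were spread unevenly: 9 lay in bins of signal with no member 1.5-fold lower. With the values as deposited the difference in medians was -0.39, as with the scaling used here, and the other scalings made it smaller. The values as deposited gave 19 genes at least 1.5-fold lower (22.6%, against 8.44% of all genes). After loess on mean signal, which fits the ratio against signal, the median was -0.29 against -0.04 for all genes, and 11 genes (13.1%) were 1.5-fold lower, closer to the 8.68% of all genes under the same scaling. The share below 0 was then 82.1%, against 54.8% of all genes. After quantile normalization 13 genes (15.5% against 10.9%) were 1.5-fold lower and 83.3% lay below 0 (60.4% of all genes). The count past 1.5-fold thus depends on the scaling, while the median of the set stayed below that of all genes under each.

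**Figure D2:**
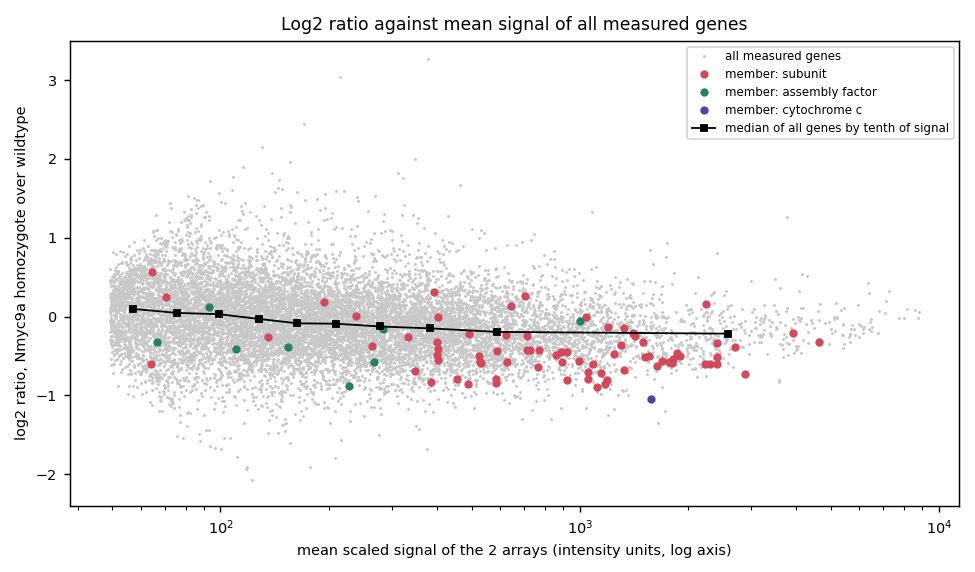
Log2 ratio (Nmyc9a over wildtype) against the mean scaled signal of both arrays (log axis) for all 12600 measured genes (grey), subunits (red), assembly factors (green) and cytochrome c (purple). The line joins the medians of all genes in 10 bins of signal, from 0.10 to -0.22, and most of the coloured points lie below it.

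Promoters from RefSeq (GRCm38.p6, 250 bases before to 50 after the start, 300 in all) were listed for 72 of the 88 genes, as 77 sequences. They were searched on both strands for the core letters CGCANGCG of the NRF1 motif, CCGGAAG of ETS factors such as GABPA, AAGATGG of YY1, CACGTG (the E-box bound by Myc with Max) and CAAGGTCA of oestrogen-related receptors. NRF1 and GABPA are known regulators of nuclear respiratory genes. The NRF1 core was in 29 of 77 promoters (37.7%), against 8.21% of all 32851 promoters in the table and 15.2% of 12889 promoters of other measured genes. These letters were settled on after a longer form with 1 more base at each end had been run, which gave 20.8% against 4.60% of all promoters. The ETS letters were in 22.1% (8.86% of all promoters and 15.7% of those of other measured genes), the YY1 letters in 14.3% (6.34% and 6.65%), the E-box in 9.09% (7.15% and 9.29%) and the receptor letters in 3.90% (1.56% and 1.15%). No promoter of the set had matches of different motifs that shared a base. The E-box letters were about as frequent as in promoters of other measured genes. Only these exact letters within 300 bases were searched, for 72 of the 88 genes, and a role of Myc was not tested. A match describes the letters and is not a binding site. Of the 26 measured genes with the NRF1 core 5 were at least 1.5-fold lower, with a median log2 ratio of -0.45, and of the 43 without it 18 were, with a median of -0.57, and for the E-box the medians were -0.49 over 6 genes and -0.50 over 63.

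Matches occurred in genes that were lower and in genes that were not, and both kinds are shown, with a match in capitals. Cycs and Atp5o (an NRF1 core), Atp5e (ETS letters) and Atp5g1 (an E-box) were at least 1.5-fold lower with a match, and Ndufa4 and Ndufb3 were so with none. Uqcr10 was not lower and has an NRF1 core, and Ndufa10 was not lower and has no match. They are written 5′ to 3′ on their own strand of GRCm38.p6, the plus strand for Ndufb3 and the minus strand for the others: Cycs at chr6:50566520-50566819, Atp5o at chr16:91931581-91931880, Atp5e at chr2:174464052-174464351, Atp5g1 at chr11:96075582-96075881, Ndufa4 at chr6:11907401-11907700, Ndufb3 at chr1:58586147-58586446, Uqcr10 at chr11:4704295-4704594 and Ndufa10 at chr1:92473709-92474008.
Cycs: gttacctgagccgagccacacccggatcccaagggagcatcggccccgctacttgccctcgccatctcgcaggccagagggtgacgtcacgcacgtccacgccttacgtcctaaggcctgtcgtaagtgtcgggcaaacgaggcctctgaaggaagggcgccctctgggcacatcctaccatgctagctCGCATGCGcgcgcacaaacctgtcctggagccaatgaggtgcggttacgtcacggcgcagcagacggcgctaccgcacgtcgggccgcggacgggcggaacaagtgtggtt
Atp5o: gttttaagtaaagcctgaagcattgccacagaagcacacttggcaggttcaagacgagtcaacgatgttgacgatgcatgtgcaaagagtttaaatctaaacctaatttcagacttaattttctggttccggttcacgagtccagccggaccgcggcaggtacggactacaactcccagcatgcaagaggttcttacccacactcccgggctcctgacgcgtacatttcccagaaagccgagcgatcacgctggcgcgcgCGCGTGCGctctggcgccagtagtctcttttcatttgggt
Atp5e: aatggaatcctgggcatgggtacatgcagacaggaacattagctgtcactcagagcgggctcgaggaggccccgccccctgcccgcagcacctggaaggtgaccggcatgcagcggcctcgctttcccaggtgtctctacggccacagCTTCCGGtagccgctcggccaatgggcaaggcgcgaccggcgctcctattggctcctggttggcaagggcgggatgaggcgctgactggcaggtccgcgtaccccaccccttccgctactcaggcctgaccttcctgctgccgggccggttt
Atp5g1: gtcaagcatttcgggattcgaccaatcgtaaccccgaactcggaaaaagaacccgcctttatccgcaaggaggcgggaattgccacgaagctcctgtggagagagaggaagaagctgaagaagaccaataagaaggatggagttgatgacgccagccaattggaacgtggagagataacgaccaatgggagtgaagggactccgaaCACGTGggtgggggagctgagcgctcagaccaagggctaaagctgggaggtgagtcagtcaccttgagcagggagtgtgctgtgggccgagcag
Ndufa4: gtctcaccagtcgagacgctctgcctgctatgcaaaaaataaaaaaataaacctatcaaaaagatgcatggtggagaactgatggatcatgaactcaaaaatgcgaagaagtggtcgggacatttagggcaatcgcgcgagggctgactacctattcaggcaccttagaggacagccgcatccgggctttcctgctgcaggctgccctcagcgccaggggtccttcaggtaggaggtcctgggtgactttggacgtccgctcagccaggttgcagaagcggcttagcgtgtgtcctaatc
Ndufb3: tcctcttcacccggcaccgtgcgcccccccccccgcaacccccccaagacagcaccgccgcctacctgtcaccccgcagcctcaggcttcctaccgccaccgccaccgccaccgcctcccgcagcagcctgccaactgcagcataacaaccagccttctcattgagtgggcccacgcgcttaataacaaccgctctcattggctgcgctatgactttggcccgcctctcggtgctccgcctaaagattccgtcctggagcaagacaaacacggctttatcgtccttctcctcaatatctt
Uqcr10: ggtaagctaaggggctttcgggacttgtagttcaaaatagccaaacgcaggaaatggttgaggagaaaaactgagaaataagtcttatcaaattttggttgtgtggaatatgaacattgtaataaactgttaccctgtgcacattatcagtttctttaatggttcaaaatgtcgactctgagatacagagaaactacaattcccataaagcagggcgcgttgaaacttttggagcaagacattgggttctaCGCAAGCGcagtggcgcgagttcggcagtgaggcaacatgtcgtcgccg
Ndufa10: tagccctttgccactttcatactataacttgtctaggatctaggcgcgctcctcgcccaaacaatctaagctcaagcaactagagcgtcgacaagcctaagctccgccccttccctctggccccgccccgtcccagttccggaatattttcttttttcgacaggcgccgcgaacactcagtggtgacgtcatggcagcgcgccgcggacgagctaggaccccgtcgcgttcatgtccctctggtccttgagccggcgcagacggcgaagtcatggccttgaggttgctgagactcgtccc

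Complex I, the entry point for electrons from NADH, had 33 measured subunits, of which 31 lay below 0 and 12 were at least 1.5-fold lower, with a median log2 ratio of -0.50. Its nuclear-encoded core subunits, most of which carry the flavin or iron-sulphur clusters, were lower in 6 of the 6 measured, with 3 past 1.5-fold and a median of -0.55. Ndufv2, an iron-sulphur subunit beside the NADH site, read 1420 and 866 (1.64-fold lower), and all 3 of its probe sets were lower. Ndufs8, which passes electrons towards ubiquinone, read 1635 and 1023 (a log2 ratio of -0.68). Its 6 probe sets spread widely, with log2 ratios from -1.30 to 0.25. Ndufs3, in the arm that binds ubiquinone, read 636 and 424, only just past 1.5-fold lower. Ndufv1, the subunit that binds NADH and flavin, read 617 and 435, and Ndufs7, which holds the last iron-sulphur cluster, read 468 and 334. Their log2 ratios were -0.50 and -0.48. Ndufs1, the largest subunit, read 362 and 301, a log2 ratio of -0.27 that is smaller than the probe set SD.

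The accessory subunits, which surround and stabilize that core, had 27 measured members, 25 of them below 0 and 9 at least 1.5-fold lower, with a median of -0.50. The lowest were Ndufb3, a subunit of the membrane arm, at 630.5 and 348 (1.81-fold lower), Ndufa13, also known as Grim19, at 1514 and 839 (1.80-fold), and Ndufb2 at 753 and 418 (1.80-fold). Ndufa3, Ndufa2 and Ndufb5 were 1.75-fold, 1.73-fold and 1.73-fold lower. Ndufa5, Ndufb6 and Ndufb11 were 1.61-fold, 1.56-fold and 1.55-fold lower. Another 16 lay between -0.58 and -0.15, from Ndufa6 at 1068 and 715 to Ndufv3 at 1400 and 1264. Ndufab1, the mitochondrial acyl carrier protein that also serves in complex I, read 632 and 424 by its brightest probe set and 229 and 237 by its other measured one. Only Ndufa10 and Ndufb4 were above 0. Ndufa10 read 639.6 and 769, a log2 ratio of 0.27, by its only measured probe set. Ndufb4 read 51.9 and 76.7, close to the floor, a log2 ratio of 0.56. The bright probe sets that name Ndufb4 together with its close copies Ndufb4b and Ndufb4c, left out by the rule, read 823 and 501 and 866 and 368, log2 ratios of -0.72 and -1.24. The higher value of Ndufb4 is therefore not shared by the other probe sets that can read it. In all, 10 probe sets were left out for naming several genes. Of the 9 that were measured 8 lay below 0, among them those that name Ndufa11 (821 and 497 by the brighter) and Ndufs6 (667 and 447).

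Complex III takes electrons from ubiquinone and hands them to cytochrome c. Of its 9 measured subunits 8 lay below 0 (88.9%, against 58.7% of all measured genes), with a median of -0.45. At least 1.5-fold lower was 1 (11.1%), near the 9.70% of all measured genes. Uqcrq, a small subunit, read 579 and 334 (1.73-fold lower), while a second, dim probe set read 96.4 and 102. Uqcrfs1, the Rieske iron-sulphur protein, read 750.0 and 504 (1.49-fold lower), and Uqcrc2, a core protein, read 1187 and 802 (1.48-fold lower). Cyc1, cytochrome c1, read 1023 and 748 (1.37-fold lower). Uqcrh, the hinge protein, stood at -0.48, Uqcrb and Uqcr11 both at -0.33, and Uqcrc1, the other core protein, at 675 and 572, a log2 ratio of -0.24. Uqcr10 was the exception at 615 and 673, a log2 ratio of 0.13, and its second measured probe set went the other way at 94.1 and 56.2.

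Cytochrome c, the carrier between complexes III and IV and also a trigger of apoptosis when released, had the lowest ratio of the set as scaled here. Its brightest probe set, for Cycs, gave 2134 and 1031, a log2 ratio of -1.05, or 2.07-fold lower. Of the others, 828 and 466 and 340.0 and 211 gave log2 ratios of -0.83 and -0.69, while the dimmest read 45.2 and 60.4, 0.29 after the floor. The 3 bright probe sets were thus all at least 1.5-fold lower. The rank depends on the setting: Ndufaf3 was lower than Cycs after loess (-0.84 against -0.82), after quantile normalization (-0.91 against -0.82) and by the median of probe sets (-0.88 against -0.76), where Atp5o was lowest at -0.92.

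**Figure D3:**
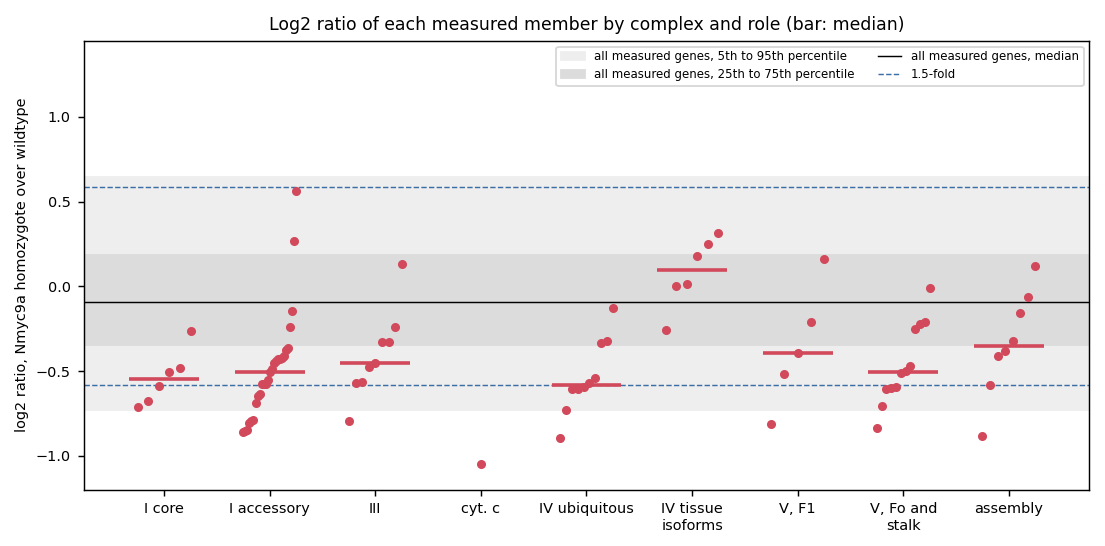
Log2 ratio (Nmyc9a over wildtype) of each measured gene (points) and the median (red bars) by complex and role, with the median and percentile bands of all 12600 measured genes in black and grey. Medians lie between -0.58 and -0.35 in every group but the tissue isoforms of complex IV, at 0.10; cytochrome c is 1 gene, at -1.05.

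Complex IV, cytochrome c oxidase, reduces oxygen, and it has ubiquitous subunits and isoforms that replace some of them in particular tissues. The 10 measured ubiquitous subunits were all below 0, with 5 at least 1.5-fold lower and a median of -0.58. The 6 measured tissue isoforms had a median of 0.10, with 2 below 0 and none 1.5-fold apart. Their probe sets were dimmer, with a median mean signal of 216 against 1756, and after loess on signal the medians were 0.14 for the isoforms and -0.36 for the ubiquitous subunits. Ndufa4, long listed with complex I and later found in complex IV, read 1451 and 779 (1.86-fold lower). Ndufa4l2, its hypoxia-induced paralog, read 402.5 and 402, the same within rounding, and is 1 of the 2 counted below 0. Cox4i1 read 2152 and 1477 (1.46-fold lower), and Cox4i2, the isoform enriched in lung, read 237 and 239, a log2 ratio of 0.01. The same kind of contrast held for Cox6b1, at 2905 and 1913 (1.52-fold lower), and Cox6b2, the testis isoform, at 182 and 206 (0.18). Cox7a2 read 3606 and 2173 (1.66-fold lower), whereas Cox7a1, the isoform of heart and skeletal muscle, read 64.4 and 76.6 (0.25). The pair Cox6a1 and Cox6a2 did not differ in that way, with 2680 and 2129 (-0.33) for the ubiquitous gene and 147 and 123 (-0.26) for the muscle one. For Cox8a, at 1254 and 1147 (-0.13), and the testis isoform Cox8c, at 351 and 437 (0.31), both ratios were smaller than the probe set SD, and a second Cox8c probe set stood at -0.09. The muscle isoform Cox8b lay below the floor, at 15.7 and 39.7, and the testis isoform Cox7b2 at 22.6 and 21.0.

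The remaining ubiquitous subunits were lower to differing degrees. Cox6c read 2693 and 1768 (1.52-fold lower), and Cox7c read 77 and 50.9 (1.51-fold lower), close to the floor. Cox5b, which binds zinc, read 2027 and 1367 (1.48-fold lower), with its 4 measured probe sets between -0.74 and -0.53. Cox5a read 1669 and 1333 (-0.32).

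Markers of cells in which isoforms are prominent were read beside them, and their part in these values was not tested. Of all measured genes, 9.70% were at least 1.5-fold lower and 6.33% as much higher. Of 10 skeletal muscle markers 5 were measured, 2 at least 1.5-fold higher and none lower, with a summed signal of 527 and 1051 and none at 0. All 9 heart markers were measured, 3 higher and none lower (3703 and 3649 in sum, none at 0). Of 6 brown fat markers only Fabp4 and Prdm16 were measured, neither 1.5-fold apart, and Ucp1, the defining one, read 5.8 and 10.3 (652 and 701 in sum, none at 0). Of 8 pericyte and smooth muscle markers 3 were lower and none higher (5811 and 4691 in sum, none at 0). Of the 5 erythroid markers on the array 3 were measured and 2 of these were lower (5476 and 4034 in sum, none at 0), and of the 8 liver markers 6 were measured and 4 of them higher (390 and 1275 in sum, none at 0).

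Complex V had 17 measured subunits, 16 below 0 and 6 at least 1.5-fold lower, with a median of -0.50. In the F1 head, 1 of 5 was 1.5-fold lower (20%, against 9.70% of all measured genes) and the median was -0.39. Atp5e, the epsilon subunit, read 1174 and 669 (1.75-fold lower), while Atp5c1, the gamma subunit that turns inside the head, read 1786 and 1247 (1.43-fold lower). The catalytic beta subunit Atp5b read 3076 and 2343 (1.31-fold lower) and the delta subunit Atp5d stood at -0.21. Atp5a1, the alpha subunit, was the only one above 0, at 2126 and 2383, a log2 ratio of 0.16. Its other probe sets read 1110 and 1081 (-0.04) and 160.5 and 87.2 (-0.88), so its direction is not settled.

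The membrane part and stalks had 12 measured subunits, all below 0, with 5 at least 1.5-fold lower and a median of -0.50. The c ring, which turns as protons pass, is encoded by Atp5g1, Atp5g2 and Atp5g3, whose mature proteins are identical. They differed in ratio: Atp5g1 read 493 and 276 (1.79-fold lower), Atp5g2 read 1831 and 1296 (1.41-fold lower) and Atp5g3 read 4218 and 3643 (1.16-fold lower). Atp5o, the stalk subunit that ties the head to the membrane, read 1308 and 801 (1.63-fold lower), and the other probe set gave 469.6 and 214 (-1.14). Atp5j2 read 2780.1 and 1830 (1.52-fold lower), and Atp5l and Atp5j stood at -0.60 and -0.59. Atp5h, Atp5pb and Atp5k lay at -0.51, -0.47 and -0.25, and Atp5md, which supports dimers of the enzyme, at -0.22. The highest was Atp5mpl, a small proteolipid, at 1046 and 1038 (-0.01).

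Among assembly factors within the set, 7 of 8 measured genes lay below 0 and 1 was 1.5-fold lower (12.5%, near the 9.70% of all measured genes). Their median was -0.35, against -0.49 for the 75 measured subunits. All of these assembly factors belong to complex I except Cox7a2l, a link between complexes that was placed in this list. Ndufaf3, which acts with Ndufaf4 early in complex I assembly, read 296 and 160.5 (1.84-fold lower), and Ndufaf4 read 321 and 215, a log2 ratio of -0.58 just short of 1.5-fold. Ndufaf2, a late assembly chaperone, read 126 and 95.1 (-0.41), Ndufaf1 read 175 and 134 (-0.38), and Ndufaf5, which modifies Ndufs7, read 74.2 and 59.3 (-0.32). Ndufaf8, its partner, read 298 and 268 (-0.16). Cox7a2l, which links complexes III and IV into supercomplexes, read 1026 and 983 (-0.06), although another of its 3 probe sets stood at -0.60, and Ndufaf7, a methyltransferase, read 88.9 and 96.7 (0.12). Ndufaf6 was below the floor at 5.4 and 9.09. The order of subunits and assembly factors turned with the scaling. The assembly factors had a median mean signal of 191, against 920 for the subunits, and the part of signal in this was not tested. After quantile normalization the assembly factors had a median of -0.50, against -0.38 for complex I and -0.27 for complex V subunits, and after loess -0.42 against -0.35 and -0.27. Neither order of subunits and assembly factors holds over these scalings.

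**Figure D4:**
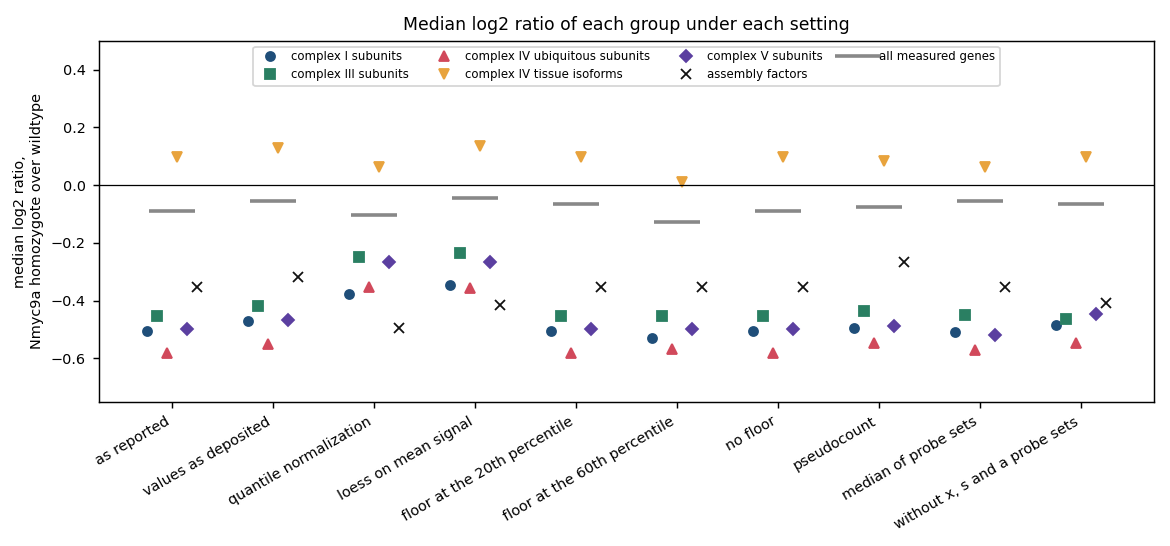
Median log2 ratio (Nmyc9a over wildtype) of each group of genes and of all measured genes (grey bars) as reported and under 9 other settings. Subunit groups and assembly factors lie below the grey bars throughout, the tissue isoforms of complex IV lie above 0 throughout, and assembly factors drop below the subunits after quantile normalization and loess.

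Other genes of the pathway, listed by role, gave a mixed picture. Of all measured genes, 9.70% were at least 1.5-fold lower, 6.33% were as much higher and 58.7% lay below 0. Complex II, which feeds electrons from succinate and pumps no protons, had 2 of 4 genes 1.5-fold lower: Sdhd at 632 and 398 (1.59-fold) and Sdha at 672 and 430 (1.56-fold), with Sdhc highest at 0.11. Both had a dimmer probe set near or above 0, at 0.40 for Sdhd and -0.06 for Sdha. Assembly factors outside the prefixes had 6 of 33 measured genes lower and 1 higher, with a median of -0.34 and 25 below 0. Atpif1, which is an inhibitor and not an assembly factor, was placed in this list and is counted among the lower ones. Those of complex IV held 5 of the lower ones: Coa6 at 225 and 122 (1.85-fold), Cox20 (-0.79), Coa5 (-0.78), Pet100 (-0.67), and Cox17, the copper carrier, at 640.2 and 410 (1.56-fold). The highest of them was Sco2 at 0.47. Atpif1, the inhibitor of ATP synthase, read 1035 and 599.8 (1.73-fold lower) by its bright probe set. Its dim ones were higher, at 120 and 184 (0.62) and at 46.1 and 60.7 (0.30 after the floor). The complex V factor Atpaf1 stood at 0.49. Complex I factors ran from Acad9 at -0.51 to Foxred1 at 0.57, with none of 8 past 1.5-fold. For complex III, Ttc19 read 97.8 and 200.4 (2.05-fold higher; 0.25 by a second, dim probe set) and Uqcc3 was lowest at -0.37. Of the genes in mitochondrial DNA, ND5 of complex I is the one analysed here, and it read 6589 and 6262, a log2 ratio of -0.07.

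Regulators of mitochondrial genes went both ways, with 2 of 13 lower and 2 higher, against 9.70% and 6.33% of all measured genes. Tfb1m, which modifies mitochondrial ribosomal RNA, read 147 and 76.4 (1.92-fold lower), and Tfam, which packages mitochondrial DNA and starts its transcription, read 240.0 and 152 (1.58-fold lower) by its brighter probe set and 99.1 and 101 by the other. Nrf1, the factor whose motif letters were counted above, read 168 and 302 (1.80-fold higher) by its brightest probe set and 116 and 175 (0.59) by another, but 124 and 82.2 (-0.60) by the remaining one, so its direction is not settled. Perm1 read 67.8 and 128 (1.88-fold higher). Gabpa stood at -0.35, Ppargc1a at 0.07 and Esrra at 0.34. No link between these regulators and the respiratory genes was tested.

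Probe sets of the same gene mostly had the same sign. Of 150 measured probe sets, 133 lay below 0 (54.8% of all 22457 measured probe sets did), 52 were 1.5-fold lower against 9.24% of all, and 2 were 1.5-fold higher against 9.32%. Among the 42 genes read by several measured probe sets, 32 lay below 0 in each, as did 30.1% of all such genes, none had all above 0, and 10 had both signs. These 10 were Cycs, Ndufb2, Uqcrq, Ndufs8, Ndufab1, Ndufa12, Ndufs4, Uqcr10, Atp5a1 and Cox8c. Values above 0 sat mainly in dim probe sets: 13 of the 28 with a mean signal under 250 and 4 of the 122 with 250 or more. These counts include genes with only 1 measured probe set, which cannot show disagreement. Over all measured genes, the share below 0 also rose with signal. It was 42.1% in the dimmest 10%, 60.1% in the bin that ends at 239 and 77.4% in the brightest 10%. The widest gap within a gene was in Ndufa12, at 999.8 and 714 by the brightest probe set and 51.9 and 150.5 by another (log2 ratios of -0.49 and 1.54). In Ndufb2 a probe set at 65 and 121 (0.90) stood against -0.85 in the other 2. In Ndufs4 the brightest read 298 and 230.0 (-0.37), with 0.29 and 0.07 in the others. Of the 15 genes at least 1.5-fold lower with 2 or more measured probe sets, 11 had all below 0 and 4 had all past 1.5-fold.

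**Figure D5:**
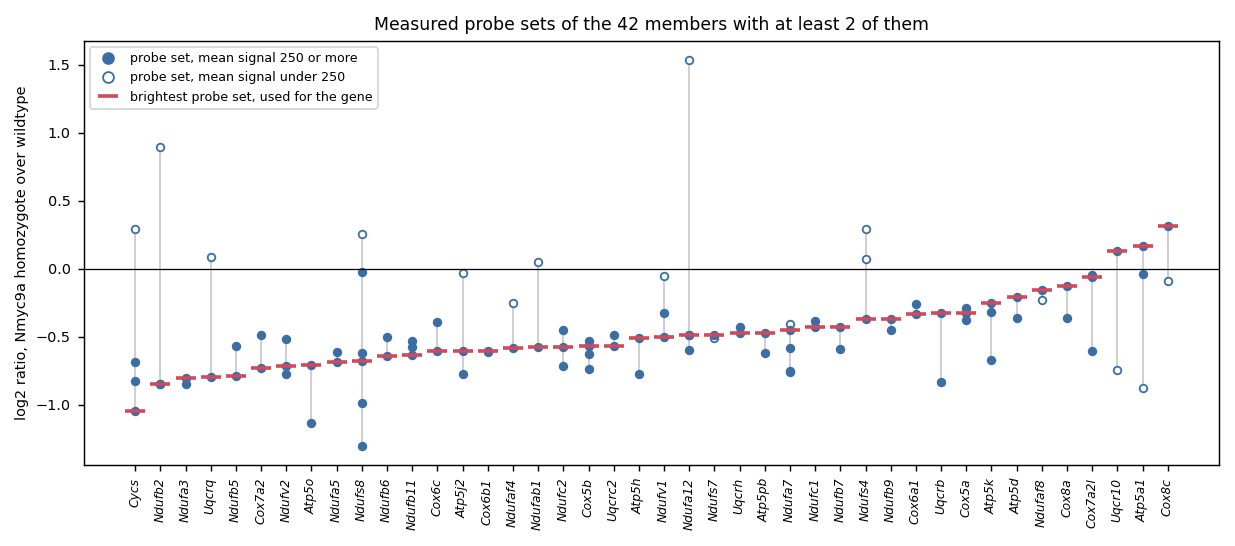
Log2 ratio (Nmyc9a over wildtype) of every measured probe set of the 42 genes with at least 2 of them, filled where the mean signal was 250 or more and open where it was lower, with the brightest probe set marked in red. Most of the points above 0 are open.

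Gene by gene, 63 of the 84 lay below 0, and 8 at least 1.5-fold lower, in every one of 10 settings (the one reported, 3 other scalings, 4 other treatments of low signals and 2 other uses of probe sets) that gave the gene a value. The 8 were Cycs, Ndufa4, Ndufb3, Ndufaf3, Ndufa13, Ndufa2, Atp5e and Atp5g1. The last 4 have no value in the setting that leaves out probe sets ending in _x_at, _s_at or _a_at, and so rest on 9. As 0 measured genes of the set had a signal under the floor, a lower floor or none leaves their ratios as reported. The median over probe sets does the same for a gene with 1 measured probe set. Agreement over the settings was therefore partly fixed in advance. Cycs ranged from -1.05 to -0.69, Ndufa4 from -0.90 to -0.67, Ndufb3 from -0.86 to -0.70 and Ndufaf3 from -0.91 to -0.77. How many of all measured genes lay below 0 or past 1.5-fold in every setting was not counted. In the reported setting 58.7% of them lay below 0 and 9.70% were at least 1.5-fold lower.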

How the data were processed

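Per the labels' protocols, RNA was extracted with Trizol and an RNeasy kit and labelled with biotin by the Affymetrix protocol, from pooled lungs. The authors deposited 1 linear intensity for each of 45101 probe sets and each array. Its scanner software, summary method and scaling: not given in the sources used here. A trimmed mean was 150 on both arrays (2% off each end).

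The 64 control probe sets were set aside. Signals of the array labelled Nmyc9a were then scaled by a factor of 0.977, which sets the median log2 ratio to 0 over probe sets with a mean signal at or above the floor (49.3, the 40th percentile). Lower signals were raised to the floor before log2 ratios, and each gene took its brightest probe set. Symbols came from the platform annotation, updated through Entrez identifiers to RefSeq GRCm38.p6 (34754 of 34958 probe sets with 1 symbol matched; 932 named several genes and were not used). Members were taken by platform symbol.

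Genes were named by rule: all core subunits of complex I, Cyc1, Cycs, isoform families, assembly factors, the 3 lowest and 2 highest of each subunit list, genes at least 2-fold apart, with probe sets of both signs or below the floor. Of the pathway lists, genes past 1.5-fold and the highest and lowest were named. Further genes, the signal of 250 that splits probe sets, the counts around 1.5-fold and the promoters shown were chosen after the values were seen. The members, lists and marker lists were chosen with earlier results of these data known, and Ndufa4 and Ndufa4l2 were placed in complex IV. No test could be run with groups of 1 array, and their number limits the precision. The alternatives are given at the end. The calculation was tested on simulated data. Python 3.11.15, numpy 2.4.6, pandas 2.3.3 and statsmodels 0.14.6 were used.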

Additional observations from a re-analysis of the deposited data

How the results depend on the processing

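Medians of complexes I, III, IV and V, of the ubiquitous subunits and tissue isoforms of complex IV and of the assembly factors kept their sign under all 11 alternatives to the scaling, floor, probe sets and members: the values as deposited, quantile normalization, loess with a span of 0.3, the 20th percentile as floor, the 60th percentile as floor, no floor, a pseudocount of 32 instead, the median over probe sets, no probe sets ending in _x_at, _s_at or _a_at, members by updated symbol, and Ndufa4 and Ndufa4l2 counted with complex I. Their size did depend on the scaling. Complex I went from -0.50 to -0.35 after loess and -0.38 after quantile normalization, complex III from -0.45 to -0.24 and -0.25, the ubiquitous subunits of complex IV from -0.58 to -0.36 and -0.35, and complex V from -0.50 to -0.27 under both. Assembly factors went the other way, from -0.35 to -0.42 and -0.50. The count of genes at least 1.5-fold lower, 26 as reported, was 24 with the median over probe sets and 22 with a pseudocount. It was 19 with the values as deposited and 19 without the x, s and a probe sets. After quantile normalization it was 13, and after loess 11. It was 62 with a 1.2-fold rule and 1 with a 2-fold rule. The count of higher genes, 0 as reported, was 1 with the values as deposited, 1 with the floor at the 20th percentile, 2 without the x, s and a probe sets and 3 at 1.2-fold. The cause of these differences was not tested. Without the x, s and a probe sets only 61 members were measured. No paired analysis was possible because each group holds 1 array. For the same reason no array could be left out, and a difference between arrays cannot be told apart from one between genotypes.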
